A study of Mus musculus with 6 samples.

Results

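The genes described here are 35 genes of glycolysis and of the response to low oxygen, chosen by name from known function, out of 21368 genes that the arrays' probes could be named for. They cover glucose uptake, the enzymes that turn glucose into pyruvate and lactate, the lactate transporters, the kinases that steer this flux, the hypoxia-inducible factor (HIF) subunits, the hydroxylases that mark HIF for degradation, and well-known HIF targets. The cells were melanocyte stem cells, which renew the pigment cells of hair, sorted from the skin of male mice as GFP-positive cells with low side scatter. The tested animals were K14-SCF Tg. Their transgene makes stem cell factor, a growth factor that melanocytes sense through KIT, under a keratin promoter active in basal keratinocytes. The animals they were set against were WT. There were 3 samples of each genotype, each on an array of its own. Age, hair cycle stage, strain and what drives GFP are not given in the sources used here. The promoter is known for activity in the epidermis, not in the sorted lineage.

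Glycolysis splits glucose into pyruvate and yields energy without oxygen, and lactate dehydrogenase turns pyruvate into lactate, which transporters of the monocarboxylate family carry across the membrane. When oxygen is plentiful, prolyl hydroxylases of the EGLN family mark HIF alpha subunits for destruction. When it is scarce, HIF alpha pairs with ARNT and raises many glycolytic genes, angiogenic factors and its own hydroxylase genes. HIF is controlled mostly at the protein level, so the mRNA of its subunits says little of its activity. Normal skin is a mildly hypoxic tissue.

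Each level is given on the log2 scale, relative to the 75th percentile of its array, and a log2 fold change is K14-SCF Tg minus WT. Between 78.4% and 87.1% of 55681 probes other than controls exceeded background clearly on each array, and 0 spots were saturated. The number of arrays limits the precision. Whether each replicate is another animal is not stated in the labels, so p-values reflect no more than how these samples spread, and that spread may be technical. One slide held WT replicate 1 alone, and the other slide held the remaining 5 arrays. K14-SCF Tg replicate 3 and WT replicate 3 lay in row 2 of that slide, and the other 4 arrays lay in row 1. The melanocyte markers, Slc45a2 and Oca2 aside, lay above the 75th percentile in both genotypes, and Dct averaged 5.89 ± 0.19 in K14-SCF Tg and 5.78 ± 0.26 in WT (SD, n = 3 each), as log2 levels. Oca2 was the 1 melanocyte marker of 12 below the filter. Of the 11 tested, 7 had negative and 4 positive log2 fold changes, with a median of -0.02. Ednrb was lower in K14-SCF Tg without overlap of the genotypes (-0.65, SE 0.21, limma, adjusted p = 0.822). Kit gave -0.46 (SE 0.28) with overlap. As these are bulk samples, fewer cells of a type and less RNA per cell cannot be told apart.

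All 35 genes were well above background on each of the 6 arrays, so none was lost to the filter on dim probes. None passed the test between genotypes (0 of 35, limma, adjusted p between 0.488 and 1.00, over all probes tested), where 0.00544% of all 18368 genes tested passed (1 gene). At an unadjusted p under 0.05 limma counted 2 members higher and 2 lower in K14-SCF Tg, 11.4% of the 35, where 5.42% of all genes did so (2.85% higher and 2.56% lower). The 2 genotypes did not overlap at the brightest probe of 5 members (14.3%), against 10.5% of all genes. Of the 5, Egln3 and Adm were higher in K14-SCF Tg, where 5.13% of all genes were so, and Pfkl, Pfkfb4 and Pgk1 were lower, where 5.41% were so. The median log2 fold change of the members was -0.04, beside -0.01 over all genes, with 14 members positive and 21 negative. At the brightest probe, the 95% interval of the fold change lay within 2-fold in either direction for 12 members (34.3%, against 32.2% of all genes). These were Slc2a3, Gpi1, Aldoa, Gapdh, Pgk1, Pgam1, Eno1, Pkm, Ldha, Hif1a, Epas1 and Arnt. For the other 23 the arrays left room for a change of 2-fold or more.

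**Figure D1:**
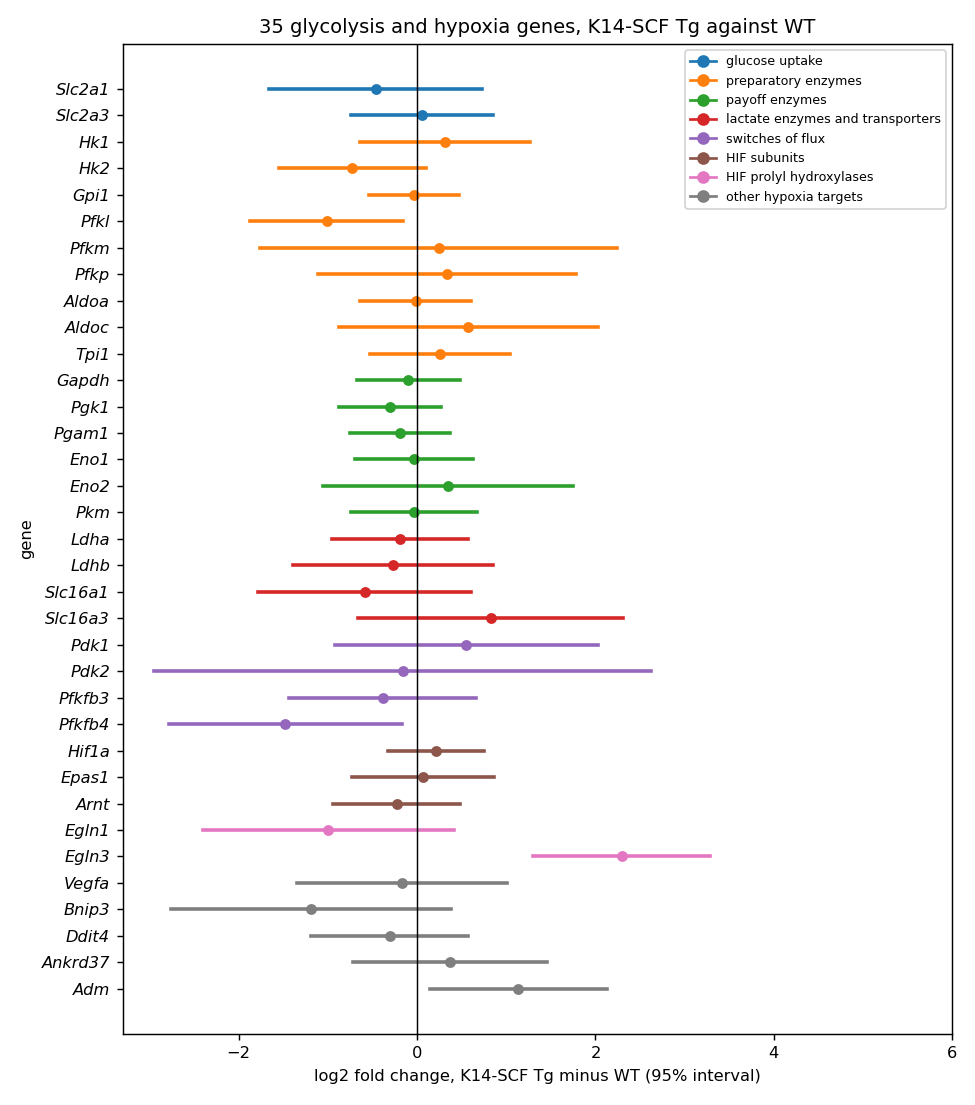
Log2 fold change (K14-SCF Tg minus WT, x axis) of each of the 35 genes (y axis), with the 95% interval from limma and colours for the role. The intervals of Egln3, Adm, Pfkl and Pfkfb4 do not cross 0 before correction for multiple tests, and none of the 35 passed after it.

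The 4 members with an unadjusted p under 0.05 were Egln3 and Adm, with positive fold changes, and Pfkl and Pfkfb4, with negative ones. Their promoters are shown because these genes had the smallest unadjusted limma p for genotype, and because HIF is known to bind short sites with the core ACGTG or GCGTG. Each window runs from 250 bases before to 50 bases after the gene's start, 5′ to 3′ on the gene's strand, from RefSeq on build GRCm38.p6. Capitals mark ACGTG or GCGTG on either strand (on the other strand they read CACGT and CACGC).
Egln3, chr12:54203825-54204124, minus strand: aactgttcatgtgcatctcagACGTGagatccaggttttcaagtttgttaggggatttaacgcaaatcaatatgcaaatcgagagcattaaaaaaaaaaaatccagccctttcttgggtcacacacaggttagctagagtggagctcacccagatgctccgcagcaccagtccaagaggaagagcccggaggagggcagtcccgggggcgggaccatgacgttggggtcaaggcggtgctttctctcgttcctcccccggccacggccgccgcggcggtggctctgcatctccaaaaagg
Adm, chr7:110627407-110627706, plus strand: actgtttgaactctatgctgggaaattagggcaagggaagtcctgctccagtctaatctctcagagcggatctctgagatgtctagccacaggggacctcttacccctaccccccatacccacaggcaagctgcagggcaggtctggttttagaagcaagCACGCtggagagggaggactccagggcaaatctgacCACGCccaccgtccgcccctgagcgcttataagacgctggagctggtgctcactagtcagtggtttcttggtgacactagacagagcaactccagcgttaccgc
Pfkl, chr10:78009758-78010057, minus strand: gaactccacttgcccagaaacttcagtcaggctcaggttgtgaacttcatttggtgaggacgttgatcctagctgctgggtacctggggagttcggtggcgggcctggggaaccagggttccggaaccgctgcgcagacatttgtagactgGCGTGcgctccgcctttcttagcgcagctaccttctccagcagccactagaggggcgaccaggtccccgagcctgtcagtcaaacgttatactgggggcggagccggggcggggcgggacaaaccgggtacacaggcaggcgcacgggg
Pfkfb4, chr9:108991652-108991951, plus strand: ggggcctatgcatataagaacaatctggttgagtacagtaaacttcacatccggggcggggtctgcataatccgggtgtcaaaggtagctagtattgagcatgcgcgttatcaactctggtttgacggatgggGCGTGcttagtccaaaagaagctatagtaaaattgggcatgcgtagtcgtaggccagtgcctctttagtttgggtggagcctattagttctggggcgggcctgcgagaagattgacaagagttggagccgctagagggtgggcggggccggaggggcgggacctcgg
The Egln3 window held 1 ACGTG, the Adm window 2 GCGTG, and the Pfkl and Pfkfb4 windows 1 GCGTG each. Both the genes with positive and those with negative fold changes thus held a core in this window. Promoters were matched for 33 of the 35 members (48 windows), all but Slc2a3 and Epas1. A core of either kind stood in 38 of the 48 windows (79.2%), against 43.8% of all 32851 promoters in the table. Some members had more than 1 window, and some of these overlapped. Counted by gene, 30 of the 33 members held a core in at least 1 window, against 12628 of all 27025 genes. The members were named partly as known HIF targets, so a higher share than over all promoters lay in the choice itself. ACGTG alone stood in 52.1% of member windows and 19.6% of all, and GCGTG in 56.2% and 32.4%. The member windows also had more G and C, with a median of 61.7% against 52.7%, and the part of base composition in these shares was not tested. CACGTG, which contains ACGTG on both strands and is also the core of sites for MITF and other helix-loop-helix factors, stood in 14.6% of member windows and 7.15% of all. A match is a description of letters and does not show binding.

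The HIF hydroxylases gave the largest fold change among the 35 genes. Egln3, a prolyl hydroxylase that is itself a HIF target, stood at -1.32, -2.61 and -1.99 on the K14-SCF Tg arrays, against -4.70, -4.04 and -4.08 on the WT arrays. The lowest K14-SCF Tg array was above the highest WT array by more than the spread within either genotype. The log2 fold change was 2.30 (SE 0.40, 95% interval 1.30 to 3.29), a 4.91-fold difference, and it did not pass (limma, adjusted p = 0.488). The WT levels were above background but dim. The lowest levels above background on WT arrays 1 to 3 were -6.18, -6.36 and -5.75. A second Egln3 probe read -1.18, -1.67 and -2.25 in K14-SCF Tg, against -5.75, -4.77 and -8.01 in WT, where it was above background on 2 of 3 arrays. The value of -8.01, in WT replicate 3, was the one not above background, so no fold change is given for this probe. Both probes read the same RNA samples and are not independent replicates. The Egln3 difference was 2.40 within slide row 1, 2.09 between the 2 arrays of row 2, and 2.08 within the slide of 5 arrays.

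Egln1, the main oxygen sensor among these hydroxylases, had a log2 fold change of the opposite sign. It stood at -3.22, -3.23 and -2.55 in K14-SCF Tg, against -2.34, -0.81 and -2.86 in WT. The genotypes overlapped, and WT replicate 2 lay apart from the other 5 arrays. The log2 fold change was -0.99 (SE 0.57), and -0.40 without WT replicate 2, with -1.65 in row 1 and 0.31 in row 2.

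The HIF subunits themselves differed little between genotypes. Hif1a, the subunit induced by low oxygen in most cells, stood at -0.48, -0.20 and -0.35 in K14-SCF Tg, against -0.63, -0.64 and -0.38 in WT. Epas1, which encodes the related alpha subunit HIF-2 alpha, stood at 2.71, 3.38 and 3.28 in K14-SCF Tg, against 2.65, 3.05 and 3.47 in WT. Arnt, their shared partner, stood at 1.15, 1.47 and 1.05 in K14-SCF Tg, against 1.72, 1.63 and 1.00 in WT. The genotypes overlapped in each. Log2 fold changes were 0.21 (95% interval -0.33 to 0.75) for Hif1a, 0.07 (-0.73 to 0.87) for Epas1 and -0.23 (-0.94 to 0.48) for Arnt. At these brightest probes the 3 intervals lay within 2-fold in either direction. The 3 Epas1 probes gave 0.07 to 0.27, and the second Arnt probe gave -0.74 with a wider error (SE 0.58).

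Of the 5 other hypoxia targets, Adm was the one whose genotypes did not overlap. Adm, which encodes the vasodilator peptide adrenomedullin, stood at 0.58, -0.27 and 0.75 in K14-SCF Tg, against -0.69, -0.34 and -1.33 in WT. K14-SCF Tg replicate 2 and WT replicate 2 lay close together. The log2 fold change was 1.14 (SE 0.40, 95% interval 0.15 to 2.13), or 2.20-fold, and did not pass (limma, adjusted p = 0.871). It was 0.67 in row 1 and 2.07 in row 2.

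The other 4 hypoxia targets overlapped between genotypes. Bnip3, a mitochondrial receptor for mitophagy, stood at 1.08, -0.34 and -0.24 in K14-SCF Tg, against 0.53, 2.48 and 1.07 in WT. Its log2 fold change was -1.19 (SE 0.64), and its second tested probe gave -1.09. Without WT replicate 2 the value was -0.63, and over all arrays left out in turn it ran from -1.65 to -0.63. One more Bnip3 probe was above background on 2 of 6 arrays and was not tested. Vegfa, the angiogenic growth factor, stood at 2.76, 1.79 and 3.07 in K14-SCF Tg, against 2.80, 2.04 and 3.28 in WT. Replicate 2 was the lowest of its genotype in both. The Vegfa log2 fold change was -0.17 (SE 0.48), with -0.20 at its other probe. Ddit4, an inhibitor of mTOR signalling induced by stress, stood at 4.55, 3.72 and 4.41 in K14-SCF Tg, against 4.50, 4.10 and 4.99 in WT (log2 fold change -0.31, SE 0.36). Ankrd37 ranged from 0.31 to 0.82 in K14-SCF Tg and from -0.56 to 0.98 in WT (log2 fold change 0.37, SE 0.44). Of these 5 targets, 2 had positive and 3 negative fold changes, and limma called 0.

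**Figure D2:**
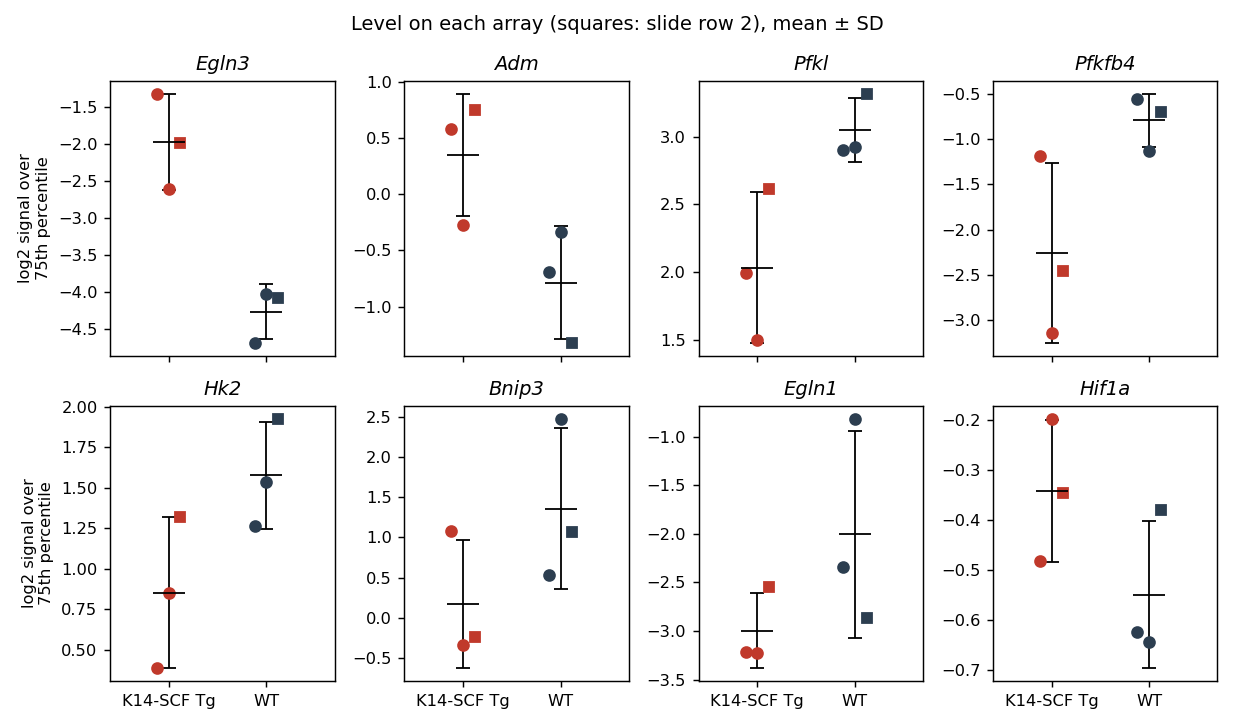
Level on each array (log2 signal over the 75th percentile, y axis) for 8 genes in K14-SCF Tg (red) and WT (dark blue), with mean ± SD over 3 arrays and squares for slide row 2. Egln3, Adm, Pfkl and Pfkfb4 show no overlap of the genotypes, and Hk2, Bnip3, Egln1 and Hif1a do overlap.

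The switches that set glycolytic flux included Pfkfb4, a bifunctional enzyme that makes and degrades fructose 2,6-bisphosphate, the activator of phosphofructokinase. Pfkfb4 stood at -1.18, -3.15 and -2.46 in K14-SCF Tg, against -0.55, -1.12 and -0.69 in WT. The highest K14-SCF Tg array lay just under the lowest WT array. The log2 fold change was -1.48 (SE 0.53, 95% interval -2.78 to -0.17), with WT 2.78-fold above K14-SCF Tg, and did not pass (limma, adjusted p = 0.877). The other Pfkfb4 probe gave -2.03 (SE 0.52, limma, adjusted p = 0.664), with -4.99, -5.09 and -5.90 in K14-SCF Tg, against -3.28, -4.19 and -2.44 in WT, again without overlap. This probe was above background on all 6 arrays but dim. The lowest levels above background on K14-SCF Tg arrays 1 to 3 were -6.23, -6.58 and -6.46. Pfkfb3, the sister enzyme with the stronger kinase activity, gave -0.39 (SE 0.43) at its brightest probe and -1.95 (SE 0.78) at the other. All 4 tested probes of Pfkfb3 and Pfkfb4 were thus negative, although they share the same 6 samples. At the brightest probes the Pfkfb4 difference was -1.33 in row 1 and -1.77 in row 2, whereas Pfkfb3 gave 0.23 in row 1 and -1.61 in row 2. The other Pfkfb3 probe was lower in K14-SCF Tg on average in row 1 and also in row 2. It read -1.09, -3.46 and -2.64 in K14-SCF Tg, against -0.34, -1.54 and 0.54 in WT.

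The pyruvate dehydrogenase kinases, which hold pyruvate back from oxidation in the mitochondria, varied widely between arrays. Pdk1, the HIF-induced isoform, stood at -3.28, -3.72 and -3.54 in K14-SCF Tg, against -4.17, -2.85 and -5.19 in WT. The WT arrays lay on both sides of the K14-SCF Tg arrays, and the log2 fold change was 0.55 (SE 0.60). Pdk2 stood at 1.63, 1.04 and -2.22 in K14-SCF Tg, against 0.66, 1.21 and -0.94 in WT. Replicate 3 was far below the others in both genotypes. Its log2 fold change was -0.16, with the widest error of the 35 genes (SE 1.13, 95% interval -2.95 to 2.63).

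Of the 9 enzymes of the preparatory stage, where glucose is phosphorylated and split, Pfkl was the one without overlap at its brightest probe. Pfkl, the liver-type phosphofructokinase subunit that catalyses the committed step, stood at 1.99, 1.50 and 2.61 in K14-SCF Tg, against 2.90, 2.93 and 3.32 in WT. Every K14-SCF Tg array was below every WT array. The log2 fold change was -1.01 (SE 0.35, 95% interval -1.87 to -0.16), with WT 2.02-fold above K14-SCF Tg, and did not pass (limma, adjusted p = 0.863). It was -1.17 in row 1 and -0.70 in row 2. The other phosphofructokinase subunits had positive log2 fold changes with wide errors. Pfkp, the platelet type, stood at 2.01, 2.39 and 2.74 in K14-SCF Tg, against 1.09, 1.79 and 3.26 in WT (log2 fold change 0.33, SE 0.59). Pfkm, the muscle type, ranged from -2.41 to -0.64 in K14-SCF Tg and from -3.03 to -0.28 in WT (0.24, SE 0.81). Pfkl and Pfkp thus differed in sign, and the difference between subunits was not tested.

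The hexokinases, which trap glucose in the cell, also differed in sign. Hk2, the inducible isoform, stood at 0.39, 0.85 and 1.32 in K14-SCF Tg, against 1.27, 1.54 and 1.93 in WT. Only K14-SCF Tg replicate 3 reached the WT range, and the log2 fold change was -0.72 (SE 0.34, limma, adjusted p = 0.931). Hk1, the constitutive isoform, stood at 2.23, 2.35 and 1.83 in K14-SCF Tg, against 1.17, 2.48 and 1.81 in WT. At this brightest Hk1 probe the log2 fold change of 0.31 (SE 0.39) rested on WT replicate 1, without which it was -0.011. A second Hk1 probe gave 0.81 (SE 0.38) without overlap of the genotypes, and did not pass (limma, adjusted p = 0.932). It ranged from 1.21 to 2.48 in K14-SCF Tg and from 0.71 to 1.15 in WT, where WT replicate 1 was the highest. Of the remaining preparatory enzymes, the isomerase Gpi1 had the narrowest range of the 35 genes, from 2.84 to 3.01 in K14-SCF Tg and from 2.90 to 3.04 in WT. Its log2 fold change was -0.04 (95% interval -0.54 to 0.46), and its 3 probes gave -0.11 to -0.04.

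The aldolases and triosephosphate isomerase completed this stage. Aldoa, the main glycolytic aldolase, stood at 5.51, 5.46 and 5.59 in K14-SCF Tg, against 5.15, 5.68 and 5.77 in WT (log2 fold change -0.01, SE 0.25). Aldoc, the brain-type aldolase, ranged from -1.84 to 0.11 in K14-SCF Tg and from -1.80 to -0.63 in WT (0.57, SE 0.59). The 2 Tpi1 probes gave opposite signs, 0.26 and -0.14. At their brightest probes none of the 3 separated the genotypes. The Tpi1 probe at -0.14 (SE 0.21) did so narrowly, and did not pass (limma, adjusted p = 0.990). It read 2.96, 2.96 and 2.98 in K14-SCF Tg, against 3.04, 3.03 and 3.26 in WT. Of all 9 preparatory enzymes, 5 had positive and 4 negative log2 fold changes, with a median of 0.24.

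The 6 payoff enzymes, which recover energy from triose phosphates, differed least between genotypes. Gapdh, the dehydrogenase often used as a reference gene, stood at 5.26, 5.21 and 5.47 in K14-SCF Tg, against 5.15, 5.62 and 5.47 in WT. Its brightest probe gave -0.10 (95% interval -0.68 to 0.48). All 7 Gapdh probes lay between -0.11 and 0.37, 4 positive and 3 negative, so the sign depends on the probe. The mouse genome holds many processed copies of Gapdh, and which probes also read them was not tested. Pgk1, phosphoglycerate kinase, stood at 2.49, 2.82 and 2.85 in K14-SCF Tg, against 2.85, 3.00 and 3.21 in WT. Here the genotypes met without overlapping, and the log2 fold change was -0.30 (SE 0.23, limma, adjusted p = 0.976).

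Pkm, pyruvate kinase, stood at 4.29, 4.13 and 4.53 in K14-SCF Tg, against 4.07, 4.17 and 4.80 in WT (log2 fold change -0.03, SE 0.29). The probe cannot tell its splice forms apart from the files alone. Pgam1 (-0.19, SE 0.23) and Eno1 (-0.03, SE 0.27) likewise overlapped between genotypes. Eno2, the enolase of neurons and neuroendocrine cells, stood at 1.02, 0.86 and 2.44 in K14-SCF Tg, against 0.29, 1.31 and 1.68 in WT (0.34, SE 0.57). It was the 1 payoff enzyme with a positive fold change and the 1 whose interval did not lie within 2-fold (-1.06 to 1.75).

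Glucose uptake showed no separation. Slc2a1, the basal glucose transporter GLUT1, stood at 2.58, 2.04 and 3.27 in K14-SCF Tg, against 2.98, 2.46 and 3.86 in WT. The genotypes overlapped, and the spread within each was larger than the gap between their means (log2 fold change -0.47, SE 0.49). Slc2a3, the high-affinity transporter GLUT3, ranged from 0.30 to 1.27 in K14-SCF Tg and from 0.43 to 0.87 in WT (0.06, SE 0.32).

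Lactate handling gave mixed signs as well. Ldha, the subunit that favours lactate formation, stood at 4.22, 4.77 and 4.37 in K14-SCF Tg, against 5.003, 4.75 and 4.18 in WT (log2 fold change -0.19, SE 0.31). Its other probes gave -0.35 and 0.22. Ldhb, the subunit that favours lactate use, stood at 2.44, 3.13 and 1.54 in K14-SCF Tg, against 2.55, 3.03 and 2.35 in WT (-0.27, SE 0.46). At their brightest probes neither subunit separated the genotypes. The Ldha probe at -0.35 (SE 0.22) did so, and did not pass (limma, adjusted p = 0.957). It read 3.64, 3.52 and 3.40 in K14-SCF Tg, against 3.78, 3.76 and 4.06 in WT. Slc16a3, the lactate exporter MCT4 and a HIF target, stood at -1.70, -1.18 and -2.06 in K14-SCF Tg, against -3.24, -3.001 and -1.18 in WT. WT replicates 1 and 2 were below all K14-SCF Tg arrays, while WT replicate 3 was level with the highest. Its log2 fold change was 0.82 (SE 0.61), with 1.00 at the second probe, and it was 1.68 in row 1 but -0.88 in row 2. Slc16a1, the more general transporter MCT1, stood at -2.31, -2.17 and -1.85 in K14-SCF Tg, against -1.81, -2.25 and -0.51 in WT (-0.59, SE 0.49).

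**Figure D3:**
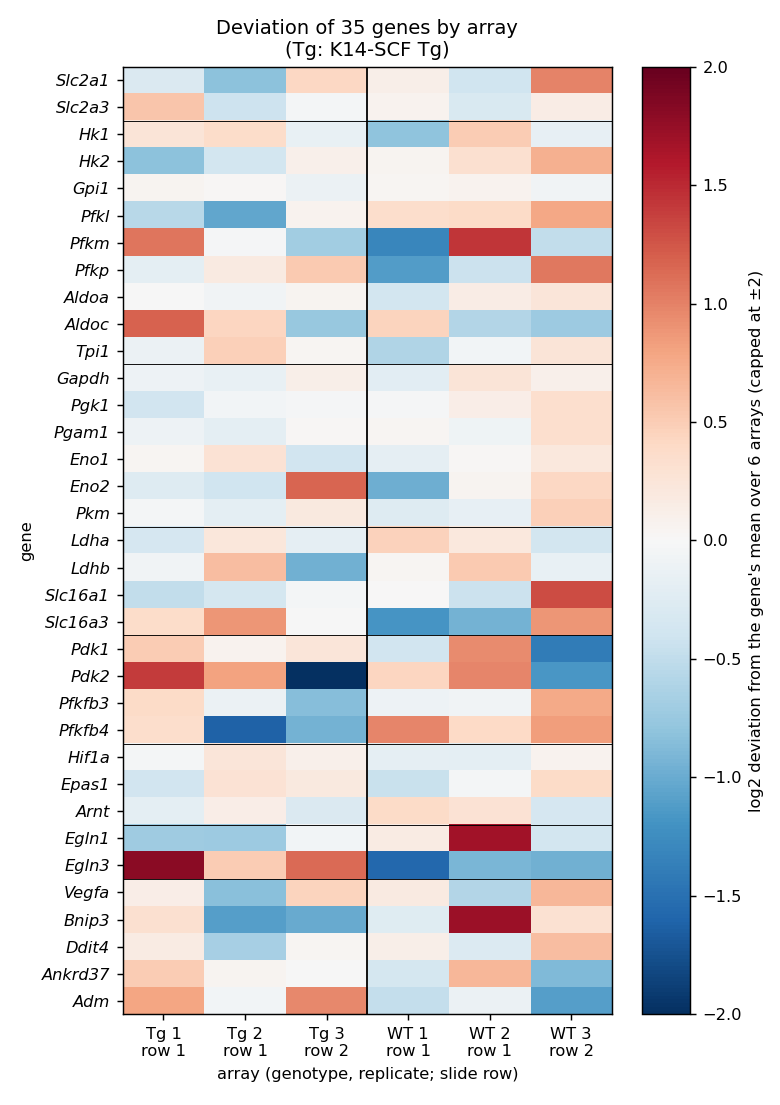
Deviation of each gene (y axis, in the order of roles) from its own mean over 6 arrays (log2, colour, capped at ±2), for 3 K14-SCF Tg arrays on the left and 3 WT arrays on the right (x axis, with slide row). Egln3 is above its mean on each K14-SCF Tg array and below it on each WT array, while Pdk2 is low on both arrays of row 2.

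In a model with genotype and slide row, the row difference was larger in size than the genotype difference for 22 of the 35 genes (62.9%), near the 58.1% of all genes. Row 2 and replicate number 3 cannot be told apart here, since row 2 held replicate 3 of each genotype alone. None of the 35 passed (0 of 35, limma, smallest adjusted p = 0.363), and 0% of all genes did. At an unadjusted p under 0.05 limma counted 5 members (14.3%), where 11.4% of all genes did so. Of these 5, 4 were higher in row 2 (4.36% of all genes) and 1 was lower (7.0% of all genes). The rows did not overlap in 10 members (28.6%), against 23.8% of all genes.

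Pdk2 had the largest row difference, at -2.71 (SE 0.49, limma, adjusted p = 0.363), with a mean of -1.58 in row 2 and 1.13 in row 1. Row 2 was lower by 3.55 among K14-SCF Tg arrays and by 1.88 among WT arrays. The 4 genes higher in row 2 were Slc2a1 (1.05, SE 0.29), Pfkp (1.18, SE 0.42), Eno2 (1.19, SE 0.38) and Slc16a1 (0.96, SE 0.35). The second Pfkp probe did not share this and gave -0.38. Among the 7 Gapdh probes the row difference was positive throughout and ran from 0.12 to 0.86. The row difference of Egln3 was 0.13 (SE 0.46) at its brightest probe, of Adm -0.11 (SE 0.46) and of Pfkfb4 -0.08 (SE 0.62), all smaller than their errors. The second Egln3 probe gave -1.78 (SE 0.57, limma, adjusted p = 0.458), with WT replicate 3 not above background there. Pfkl was higher in row 2 by 0.64 (SE 0.26).

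**Figure D4:**
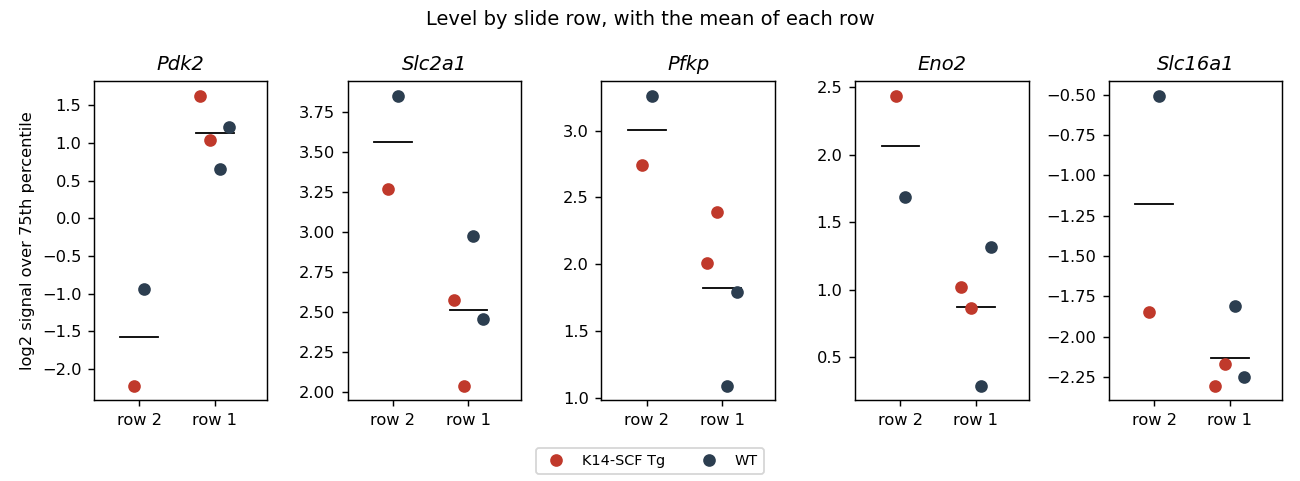
Level (log2 signal over the 75th percentile, y axis) of 5 genes on the 2 arrays of slide row 2 and the 4 arrays of row 1 (x axis), with the mean of each row as a line, K14-SCF Tg in red, WT in dark blue and a scale of its own for each gene. Pdk2 is lower in row 2 in both genotypes, and Slc2a1, Pfkp and Eno2 are higher there without overlap.

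Other genes of the same pathways were listed by function, 89 in all, of which 82 were tested. None passed (0 of 82, limma, adjusted p between 0.661 and 1.00), and their median log2 fold change was 0.02. At an unadjusted p under 0.05 limma counted 4 higher and 1 lower, beside 2.85% and 2.56% of all genes. The genotypes did not overlap in 14 of the 82, beside 10.5% of all genes. Of the 41 glycolysis and pyruvate genes, Tigar, a phosphatase that lowers fructose 2,6-bisphosphate, stood at -0.63, -0.71 and -0.86 in K14-SCF Tg, against -1.57, -2.12 and -1.56 in WT (log2 fold change 1.01, SE 0.25, limma, adjusted p = 0.661). The genotypes did not overlap, and both Tigar probes were positive. Tigar thus had the opposite sign to Pfkfb4, which both makes and degrades the same metabolite. That metabolite was not measured, and a link between the 2 genes was not tested. The next positive genes were the liver pyruvate kinase Pklr (1.92, SE 0.89, above background on 2 of 3 WT arrays), the transporter Slc2a8 (1.20, SE 0.57) and Pgam2 (0.86, SE 0.44). Those with negative signs and the smallest p were Ugp2 (-0.38, SE 0.22), the mitochondrial pyruvate carrier Mpc1 (-0.40, SE 0.29), Gapdhs (-1.34, SE 1.11) and Pdp1 (-0.38, SE 0.44).

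Of the 41 oxygen sensing genes and hypoxia targets, 15 had positive and 26 negative log2 fold changes. Cxcr4, a chemokine receptor and HIF target, stood at 1.95, 1.34 and 2.55 in K14-SCF Tg, against 0.18, 1.02 and 0.82 in WT (1.27, SE 0.41, limma, adjusted p = 0.820). The adenylate kinase Ak4 (0.77, SE 0.30) and Hif3a (0.95, SE 0.48) also had positive values. The targets Ndrg1 (-0.55, SE 0.26) and Higd1a (-0.45, SE 0.24) had the opposite sign. Zfp395 stood at -0.50 (SE 0.28). Genotypes did not overlap in Cxcr4, Ak4 and Hif3a, nor in Ndrg1, Higd1a, Zfp395 and Arnt2. Arnt2, a paralogue of Arnt, stood at 3.57, 3.67 and 3.35 in K14-SCF Tg, against 4.05, 4.25 and 4.06 in WT (-0.59, SE 0.22, limma, adjusted p = 0.885). Known HIF targets thus lay on both sides of 0, Egln3, Adm, Cxcr4 and Ak4 with positive and Bnip3, Ndrg1 and Higd1a with negative values.

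Of the lists of markers of other skin cells, the fibroblast list was the one whose summed levels did not overlap between genotypes. None of its 12 genes passed (0 of 12, limma, smallest adjusted p = 0.564), 9 had negative and 3 positive log2 fold changes, and the median was -1.46. Their summed linear level lay between 10.9 and 23.4 on the K14-SCF Tg arrays, against 29.6 to 74.7 on the WT arrays. Col1a1 had a log2 fold change of -1.83 (SE 0.69), Col1a2 of -1.87 (SE 0.52) and Col3a1 of -2.31 (SE 0.76), while Pdgfra (1.27, SE 0.99) and Mfap5 (1.01, SE 1.26) were positive. The part of these markers in the negative values of Pfkl, Pfkfb4 and Hk2 was not tested. The summed melanocyte markers lay between 280.0 and 337.0 in K14-SCF Tg and between 292.0 and 380.0 in WT. Endothelial markers, of interest for Epas1 and Vegfa, summed to 2.37 to 2.81 in K14-SCF Tg and to 2.19 to 5.15 in WT, with 6 of 8 negative. Erythroid markers summed to 2.82 to 10.4 in K14-SCF Tg and to 0.925 to 11.8 in WT. Leukocyte markers summed to 1.60 to 3.58 in K14-SCF Tg and to 1.46 to 5.65 in WT, and skeletal muscle markers to 2.27 to 3.04 in K14-SCF Tg and to 1.71 to 2.34 in WT, with 6 of 6 tested muscle markers positive. Keratinocyte markers summed to 135.0 to 146.0 in K14-SCF Tg and to 117.0 to 148.0 in WT, most of it from the Trp63 probe, which read 6.76 to 7.14 on every array. Of 6 mast cell markers 3 were tested, all 3 positive, and they summed to 0.489 to 0.671 in K14-SCF Tg and to 0.301 to 0.548 in WT.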

How the data were processed

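RNA came from FACS-sorted melanocyte stem cells. Per the labels' protocols, 0.5 µg of cDNA per array was amplified and labelled with Cy3, and 6 Agilent mouse arrays were read in 1 colour. The deposited intensity values used, per the file headers, were the processed signal (background-subtracted and detrended within the array by Agilent Feature Extraction 10.7.1.1) and the median signals of spot and background, with flags of 0 or 1. The deposited value table holds a linear ratio, which equals the processed signal over 1 constant per array (100% of values above 1 within 1%), near the array's 75th percentile. Its scale and direction are therefore known, and how the authors set the constant is not stated. Its column medians were 0.184, 0.188 and 0.176 for K14-SCF Tg replicates 1 to 3 and 0.170, 0.177 and 0.169 for WT replicates 1 to 3.

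Control and outlier spots were left out, spots of a probe averaged on the log2 scale, and each array's 75th percentile over 55681 probes subtracted. A probe was tested where at least 3 of 6 arrays had it well above background (47709, after 3 were left out as outliers). Of 29786 probes with a RefSeq accession, 28331 were named through RefSeq genes on GRCm38.p6. Its build differs from the mm9 of the array design. A gene was represented by its brightest tested probe, giving 18368 genes. The 35 genes had 58 probes, of which 57 were tested. The comparison of K14-SCF Tg with WT used lmFit and eBayes of limma 3.58.1 (R 4.3.3), 2-sided and without covariates, and p-values were adjusted by Benjamini-Hochberg across every tested probe, at a threshold of 0.05. Slide row was tested in a model with genotype. The fit was checked on simulated data, where it recovered 1.2% of 2-fold, 30.4% of 4-fold and 52% of 8-fold changes. A gene that did not pass is therefore not shown to be unchanged. The members, gene lists and alternatives were chosen with earlier results of these data known. Values on every array are given for members with an unadjusted p under 0.05 for genotype or row, for those without overlap of the genotypes, and for a set of named central genes. Of the other pathway lists, up to 4 genes per direction with the smallest p are named, except 1 that is not reported here. Alternatives covered normalization, background, filters, probe choice, slide, row, pairing, variance and leaving out each array.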

Additional observations from a re-analysis of the deposited data

How the results depend on the processing

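Under 17 alternatives for the genotype comparison, limma called 0 of the 35 members and 0 of the other pathway genes, as in the report, and 0 members for slide row under the 14 that apply to it. The count of all genes called went from 1 to 0 with normexp and quantile normalization together, with probes above background on all 6 arrays, with the mean of a gene's probes, with slide as a block, with row as a covariate, with the replicate block, with a trended and robust variance, and without any 1 array (0 to 0). The median over the members ran from -0.136 to 0.0043 over all alternatives. Egln3 stayed between 1.64 and 3.39 (limma, adjusted p between 0.370 and 0.732), Adm between 0.87 and 1.45, Pfkl between -1.30 and -0.75 and Pfkfb4 between -2.02 and -1.03. The upper end and the smallest adjusted p of Egln3 came with the mean of its probes. That mean takes in the second probe's value in WT replicate 3, which was not above background. Leaving out 1 array gave 1.97 to 2.61 for Egln3.

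Signs turned for 15 members, with sizes of at most 0.55 in the report, and held for the other 20. Under quantile normalization these were Gpi1 (0.018), Aldoa (0.0043), Eno1 (0.043) and Pkm (0.012), and with normexp added Gpi1 (0.0035), Aldoa (0.021), Eno1 (0.057) and Pkm (0.0031). Under median centring, which moved the median of all genes to -0.10, they were Slc2a3 (-0.029) and Epas1 (-0.019), and with the mean of its probes Gapdh (0.11). With slide as a block, which amounts to leaving out WT replicate 1, alone on its slide, they were Hk1 (-0.011), Pfkm (-0.35), Pfkp (-0.14), Eno2 (-0.060), Pdk2 (0.013) and Epas1 (-0.14). Leaving out 1 array gave ranges of -0.20 to 0.28 for Slc2a3, -0.011 to 0.64 for Hk1, -0.077 to 0.016 for Gpi1, -0.35 to 1.02 for Pfkm, -0.14 to 0.94 for Pfkp, -0.20 to 0.10 for Aldoa, -0.23 to 0.0072 for Gapdh, -0.19 to 0.15 for Eno1, -0.16 to 0.64 for Eno2, -0.17 to 0.20 for Pkm, -0.65 to 0.14 for Ldhb, -0.0059 to 1.16 for Pdk1, -0.90 to 1.02 for Pdk2, -0.14 to 0.27 for Epas1 and -0.50 to 0.21 for Vegfa. The cause was not tested. The members with positive values numbered 14 in the report, 18 under quantile normalization and 10 without WT replicate 1. The same ranges were -1.42 to -0.40 for Egln1, 0.44 to 1.47 for Slc16a3, -0.79 to -0.086 for Slc2a1 and -0.95 to -0.077 for Slc16a1, the last 2 smallest without WT replicate 3.

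Replicate numbers were checked as pairs. Deviations from the genotype means correlated at 0.02, 0.05 and 0.13 for numbers 1, 2 and 3, and K14-SCF Tg replicate 1 correlated best with WT replicate 2 (0.06), so the replicates were not treated as pairs. The replicates numbered 3 also share slide row 2. With the replicate block 0 members were called (smallest limma adjusted p = 0.732).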
